A study of Homo sapiens with 6 samples.

Results

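The SR and hnRNP splicing factor genes were examined in cells labelled H1650 with and without depletion of SETD2, the histone methyltransferase that places trimethylation on lysine 36 of histone H3. They are the protein-coding genes of the expression table whose symbols name an SR protein (SRSF), an hnRNP, a TRA2, SF3A, SF3B, U2AF, PTBP, RBFOX, MBNL or CELF protein, and 57 of the 15897 listed genes met this rule. The choice used names alone and no measured value. H1650 is an established line of human lung adenocarcinoma cells. RNA-seq was available for 3 libraries labelled control, with the genotype given as wild type, and 3 libraries labelled shSETD2, in which a short hairpin RNA against SETD2 was expressed. The study made 3 hairpin constructs in the PLKO.1 vector, and the labels leave unsaid if library numbers within shSETD2 stand for constructs or for repeats of 1 construct, and whether the control cells carried a vector. Nothing states that the libraries came from separate cultures, so the p-values measure only the spread between these libraries, which may be technical. Expression is given as FPKM, which scales fragments to transcript length and to the mapped fragments of a library, as the authors deposited it. The number of fragments behind each value is unknown, and 3 libraries per group limit the precision.

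Splicing removes introns in steps that these proteins guide. SR proteins bind exonic enhancers through RNA recognition motifs and recruit the spliceosome through arginine- and serine-rich domains, whereas hnRNP proteins coat nascent RNA and often silence nearby splice sites. U2AF reads the end of the intron, and SF3A and SF3B hold the U2 snRNP on the branch point. PTBP, MBNL, CELF and RBFOX proteins switch exons between tissues. Trimethylated lysine 36 of histone H3 has been linked to splicing through reader proteins, among them MORF4L1, which can recruit PTBP1, and PSIP1, which binds SRSF1.

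The targeted gene was measured first, as a check of the labels. SETD2 had an FPKM of 18.0, 10.2 and 17.6 in control libraries 1 to 3 and of 8.97, 8.09 and 12.2 in shSETD2 libraries 1 to 3. The mean was 1.57-fold lower in the shSETD2 libraries, but the groups overlapped, because control library 2 was below shSETD2 library 3. The log2 fold change was -0.58 ± 0.24 (SE), with an adjusted p of 0.0641 in limma. Without control library 2 it was -0.83 (adjusted p = 0.00666, limma), and without shSETD2 library 3 it was -0.73 (adjusted p = 0.042, limma). With any 1 of the other 4 libraries left out it was between -0.53 and -0.45 and not called (adjusted p between 0.149 and 0.181, limma), and after median ratio scaling, explained below, it was -0.27 (adjusted p = 0.343, limma). The groups are therefore called by their labels throughout.

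The labelled cell type was checked against marker genes. Of 12 markers of lung epithelium 4 were listed, and they summed to between 5.7 and 6.04 FPKM in the control libraries and between 3.23 and 4.05 in the shSETD2 libraries. NKX2-1, a lineage factor of lung adenocarcinoma, was between 1.44 and 1.8 FPKM in the control libraries and at 0 in all shSETD2 libraries, whereas MUC1 was at most 0.75 in the former and at least 2.19 in the latter. The groups also differed in genes that mark other lineages, and within most lists genes went both ways. The single genes named here were chosen after their values had been seen. The 9 listed epithelial markers summed to between 14.5 and 16.5 FPKM in the control libraries and between 405 and 458 in the shSETD2 libraries, where the keratin gene KRT7 reached 87.1 against at most 0.0375. The keratins KRT7, KRT8 and KRT18 made up most of the second sum. CDH1, the gene of E-cadherin, went from between 0.86 and 1.52 FPKM with control cells to 0.014 or less with shSETD2. EPCAM, CLDN7 and ST14, under the filter on low values, were in each shSETD2 library below all controls. ELF3, and CLDN4 under that filter, were in each shSETD2 library above all controls. The 6 listed neuronal markers summed to between 68.6 and 73.3 FPKM in the control libraries and between 18.1 and 19.6 in the shSETD2 libraries, with the neurofilament gene NEFM at 36.5 or above in the former and at 0 in the latter. TUBB3 went the other way, from at most 1.99 to at least 15.3 FPKM, and made up most of the shSETD2 sum. Of the embryonic kidney markers, PAX8 was at 0.0368 FPKM or less in the control libraries and between 28.1 and 35.15 in the shSETD2 libraries, while SALL1, SIX2, EYA1 and EMX2 were at 0 in the shSETD2 libraries. The 4 listed oncofetal markers summed to 87.4 FPKM or more in the control group and to 37.3 or less in the shSETD2 group, where LIN28B was at 0 but HMGA2 was at 17.2 or above, against at most 4.73 in the control group. The 9 listed mesenchymal markers summed to at most 133 and at least 170.0 respectively, with VIM at most 76.7 and at least 129 FPKM and TWIST1 at 0 in the shSETD2 libraries. CD68, the 1 listed leukocyte marker, was between 1.01 and 1.62 FPKM in all libraries. Given these switches and the overlap in SETD2, whether both groups are the same cell line is not established by the data, and each fold change below compares libraries by their labels. A difference in cell identity and an effect of the hairpin cannot be told apart, since every library of a group shares both. On the log2(FPKM + 1) scale, the correlation over the splicing factor genes (Pearson's r; genes do not replicate one another) was at least 0.991 within a group and between 0.928 and 0.939 between groups.

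The splicing factor genes were well expressed in both groups, and most of them were lower in the libraries labelled shSETD2. A mean FPKM of at least 5 was reached by 51 of the 57, against 44.5% of all listed genes, and 26 were among the 1000 genes with the highest mean. Together they took 0.989%, 1.0% and 0.975% of the summed FPKM in control libraries 1 to 3 and 0.767%, 0.777% and 0.752% in shSETD2 libraries 1 to 3. Every shSETD2 library was below every control library. In RNA of whole cultures, fewer cells of a type and less RNA per cell cannot be told apart. The difference was -0.223 percentage points, with an exact two-sided permutation p of 0.1, the smallest that 3 against 3 libraries allow, and 0.15 after adjustment over the 6 shares compared. The hnRNP genes alone went from 0.523% ± 0.00633 to 0.399% ± 0.00717 (SD, n = 3), the SR and TRA2 genes from 0.21% ± 0.00279 to 0.153% ± 0.00528, and the SF3A, SF3B and U2AF genes from 0.2% ± 0.00244 to 0.157% ± 0.00152, each with an exact permutation p of 0.1. The shares of the PTBP genes (exact permutation p = 0.9) and of the MBNL, CELF and RBFOX genes (exact permutation p = 0.5) overlapped between the groups.

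Each gene was then compared between the groups with limma on log2(FPKM + 1), among the 14068 genes whose FPKM averaged 0.5 or more, and a gene was called at an adjusted p under 0.05. Of the 55 splicing factor genes tested, 8 were higher in the shSETD2 libraries, 36 were lower and 11 were not called. Over all genes tested, 26.8% were called higher, 51.8% lower and 78.6% in either direction, and the 44 of 55 called here are close to the last of these shares. Among all genes averaging 5 FPKM or more, 33.9% were called higher and 45.8% lower. The groups did not overlap for 49 of the 55, 10 with the shSETD2 libraries above and 39 with the control libraries above, against 80.9% of all genes tested (27.9% and 53.0%). The median log2 fold change was -0.39 for the splicing factor genes, -0.29 for all genes tested and -0.14 for those that average 5 FPKM or more. A log2 fold change of at least 1 in size was reached by 6 called genes, SF3B6, SRSF11, MBNL3, HNRNPA1L2, SRSF7 and CELF2, while 29.9% of all genes tested reached it.

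The general shift toward lower values depended on how the libraries were scaled. Median ratio scaling divides each library by the median of its ratios to the geometric mean of all libraries, and the all-gene median of the log2 fold change moved from -0.29 to -0.03 and that of the splicing factor genes from -0.39 to -0.07. With this scaling 20 splicing factor genes were higher and 22 lower, beside 37.1% and 39.1% of all genes tested, with 76.2% called in either direction. Of the 7078 genes averaging 5 FPKM or more, 3365 were higher and 2160 lower with this scaling. Their median log2 fold change was 0.17, beside -0.07 for the splicing factor genes. Both scalings gave the same call for 8 genes that were higher, which were CELF2, HNRNPF, MBNL1, MBNL2, PTBP3, SF3B3, SF3B4 and SRSF6, and for 22 that were lower. HNRNPA2B1, HNRNPL and SF3B5 were lower as deposited and higher after median ratio scaling, 11 genes that were lower lost their call, 9 that were not called became higher, and PTBP1 and SRSF8 were called by neither. Quantile normalization instead gave 8 higher and 42 lower, beside 4569 and 6012 of all 14068 genes tested. Upper quartile scaling gave 10 and 35, beside 4102 and 6815 of all genes tested. The direction of 16 of the 55 genes flipped under at least 1 scaling, so the values below give both the fold change as deposited and, where it matters, that after median ratio scaling.

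**Figure D1:**
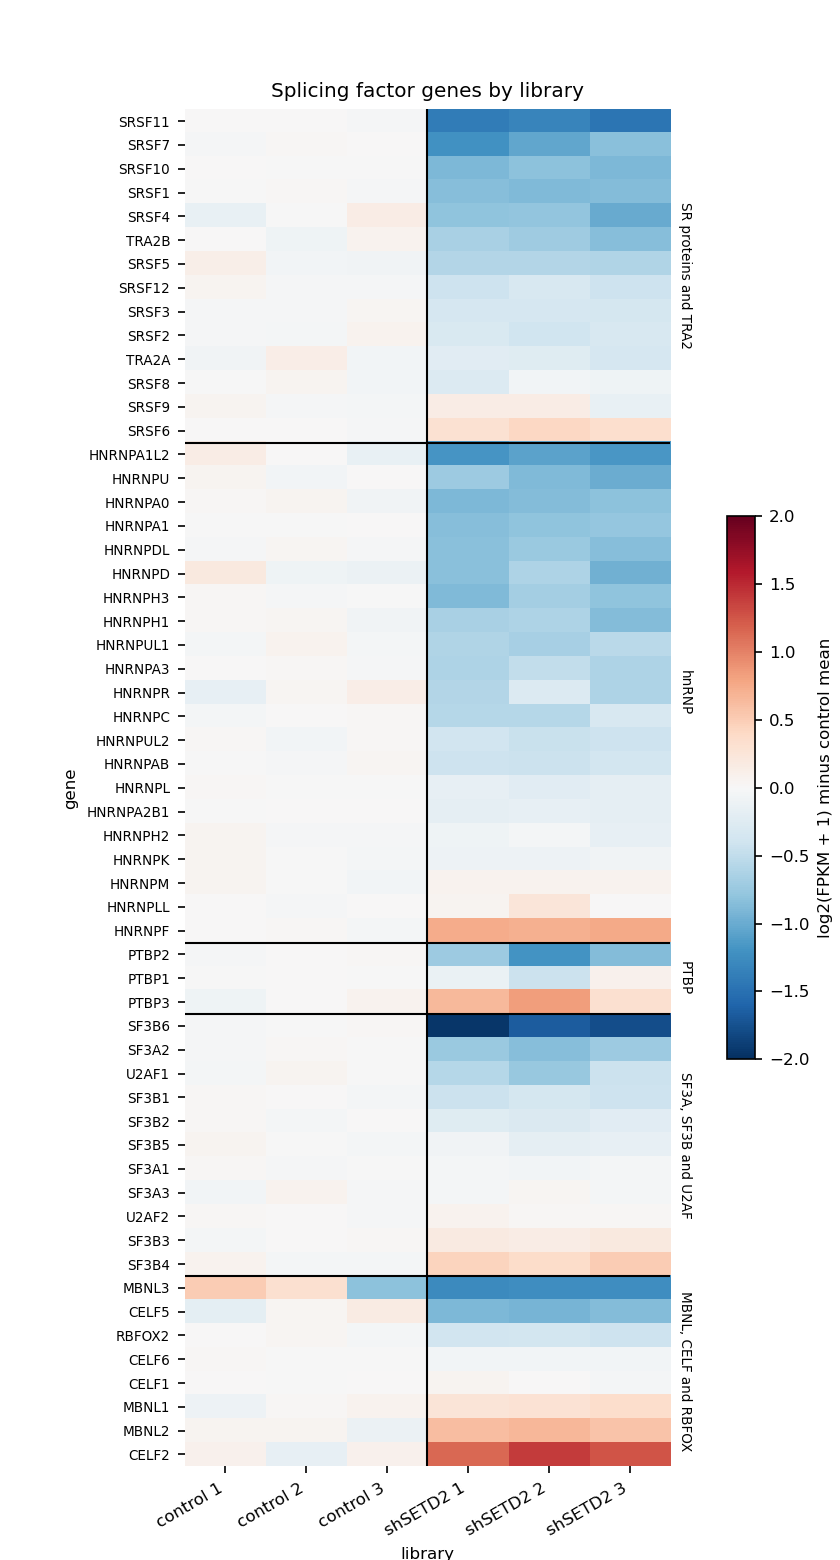
Heat map of the 57 splicing factor genes (rows, grouped by role and ordered by change) in the 6 libraries (columns). Colour gives log2(FPKM + 1) minus the mean of the control libraries, with blue for lower and red for higher on a scale that ends at 2, and the 3 shSETD2 columns are blue for most genes, most deeply for SF3B6, and red for HNRNPF, PTBP3, MBNL2 and CELF2. MBNL3 is bluer in control library 3 than in the other controls.

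The SR and TRA2 genes were mostly lower in the shSETD2 libraries, and SRSF6 was the 1 gene called higher. Of 14 genes tested 11 were lower, SRSF6 was higher, and SRSF8 and SRSF9 were not called, beside 51.8% lower and 26.8% higher of all genes. After median ratio scaling 7 were lower and 2 higher, TRA2A and SRSF8 turned from below 0 to above 0, and SRSF9 turned below 0 after quantile normalization. The median log2 fold change was -0.49 as deposited and -0.21 after median ratio scaling.

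SRSF1, the founding SR protein and a proto-oncogene (chr17:56080721-56084707, minus strand, GRCh37), had the highest mean FPKM of the group, with 105, 108 and 103 in control libraries 1 to 3 and 58.1, 56.4 and 57.2 in shSETD2 libraries 1 to 3. The groups stood far apart for the spread within them, 1.84-fold lower with shSETD2, and the log2 fold change was -0.87 ± 0.03 (SE; adjusted p = 1.05e-06, limma) and -0.54 after median ratio scaling. A listed gene, AC015813.2, overlaps SRSF1 on the same strand. Its FPKM was between 8.45 and 10.2 in the control libraries and between 1.96 and 2.65 in the shSETD2 libraries, so the sum of both was also lower in every shSETD2 library, 59.5 against 115 on average. SRSF11, an SR-related protein that joins U2AF at the end of introns (chr1:70671365-70718735, plus strand), had 36.8, 36.9 and 35.9 FPKM in the control libraries and 13.3, 14.1 and 12.7 in the shSETD2 libraries. This was the deepest fall of the group, 2.74-fold, at a log2 fold change of -1.39 ± 0.05 (SE; adjusted p = 8.19e-07, limma), and it stayed at -1.07 after median ratio scaling. SRSF7, an SR protein with a zinc knuckle that also acts in RNA export, had 38.6, 39.9 and 39.3 FPKM in the control libraries and 16.3, 18.5 and 21.6 in the shSETD2 libraries. The shSETD2 libraries varied more than the controls for SRSF7 but remained below all of them, and the log2 fold change was -1.03 ± 0.10 (SE; adjusted p = 8.06e-05, limma).

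SRSF6 moved against the rest of the group. It had 64.1, 64.6 and 63.2 FPKM in the control libraries and 79.6, 85.7 and 81.2 in the shSETD2 libraries. All 3 shSETD2 libraries were above the controls, and the log2 fold change was 0.36 ± 0.04 (SE; adjusted p = 0.00016, limma) as deposited, 0.69 after median ratio scaling and 0.11 after quantile normalization. In the control libraries SRSF1 was more abundant than SRSF6, and in the shSETD2 libraries SRSF6 was more abundant than SRSF1. The FPKM ratio of SRSF6 to SRSF1, which does not depend on the scaling of a library, was 0.61, 0.601 and 0.611 in the control libraries and 1.37, 1.52 and 1.42 in the shSETD2 libraries. This ratio was chosen after the values had been seen and carries no test. The ratio of SRSF6 to its relative SRSF4 likewise went from between 3.03 and 3.79 to between 7.73 and 9.18.

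The remaining SR and TRA2 genes fell or were not called, and SRSF10 and SRSF4 fell about as far as SRSF1. SRSF10, which represses splicing when it is dephosphorylated, SRSF4 and TRA2B, which binds purine-rich enhancers, had log2 fold changes of -0.87, -0.87 and -0.74, and SRSF5 one of -0.59, all lower in both scalings. SRSF12, SRSF3, SRSF2 and TRA2A were lower as deposited, with log2 fold changes of -0.38, -0.34, -0.34 and -0.27, and were not called after median ratio scaling. SRSF8, a retrotransposed relative of SRSF2, had a mean FPKM of 9.49 ± 0.427 in the control libraries and 8.56 ± 0.782 in the shSETD2 libraries (SD, n = 3), and these overlapped. SRSF9 had 36.9 ± 1.44 and 38.3 ± 4.48 FPKM, because shSETD2 library 3 was at 33.1 while libraries 1 and 2 were at 40.9 and 40.8. Without shSETD2 library 3 the log2 fold change of SRSF9 was 0.15 (adjusted p = 0.0386, limma) rather than 0.05.

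Several of these genes start next to a gene on the opposite strand. The bases between the starts are shown here for SRSF11 and SRSF7, which were named for a large change, with SRSF9 for contrast. They are read 5′ to 3′ on the strand of the splicing factor from the GRCh37 (hg19) genome, and capitals mark, on either strand, the CCAAT box, the ETS core CGGAAG and the GC box GGGCGG. SRSF11 starts 61 bases from LRRC40 (chr1:70671304-70671364), SRSF7 39 bases from GEMIN6 (chr2:38978637-38978675) and SRSF9 56 bases from DYNLL1 (chr12:120907597-120907652).
SRSF11 and LRRC40: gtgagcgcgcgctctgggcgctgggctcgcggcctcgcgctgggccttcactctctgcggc
SRSF7 and GEMIN6: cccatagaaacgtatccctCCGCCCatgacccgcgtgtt
SRSF9 and DYNLL1: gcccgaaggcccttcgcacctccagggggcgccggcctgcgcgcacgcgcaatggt
All are rich in G and C, at 77.0%, 59.0% and 76.8%. The partners were called in the direction of the splicing factor for the first and second, where LRRC40 went from 24.9 ± 1.46 to 11.96 ± 0.897 FPKM (SD, n = 3) and GEMIN6, a part of the SMN complex that loads snRNPs, from 4.94 ± 0.532 to 2.06 ± 0.0561. DYNLL1 went from 18.9 ± 0.839 to 26.8 ± 0.901 FPKM and was higher, while SRSF9 was not called.

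**Figure D2:**
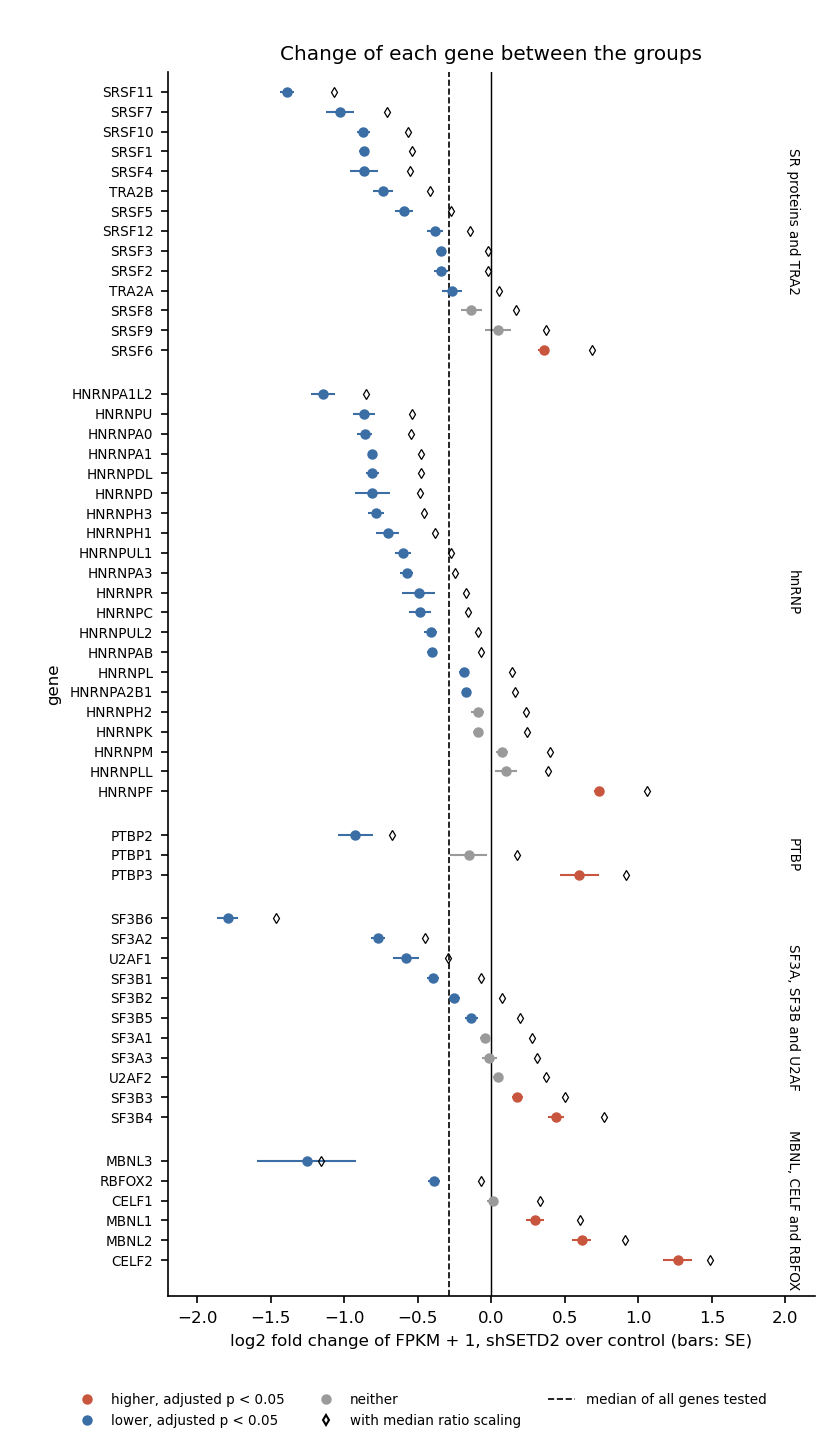
Log2 fold change of FPKM + 1 in shSETD2 over control libraries for the 55 splicing factor genes tested, in 5 role groups. Filled points with bars give the value and SE as deposited (red higher, blue lower, grey not called), open diamonds the value after median ratio scaling, and the dashed line the median of all genes tested, -0.29; the diamonds lie to the right of the points, and they cross 0 for genes such as TRA2A, HNRNPL, HNRNPA2B1 and SF3B5.

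The hnRNP genes showed the same general direction, with HNRNPF as the 1 gene called higher. Of 21 genes tested 16 were lower as deposited and 4 were not called, beside 51.8% lower and 26.8% higher of all genes tested. After median ratio scaling 10 were lower and 7 higher, with the direction of HNRNPA2B1, HNRNPL, HNRNPH2 and HNRNPK turned from below 0 to above 0, and HNRNPM turned below 0 after quantile normalization. The median log2 fold change was -0.50 as deposited and -0.17 after median ratio scaling. The levels of HNRNPA1, HNRNPAB and HNRNPK were the highest, at mean FPKM of 126, 118 and 101 over all libraries.

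HNRNPA1, which binds silencers in exons and introns and counters SRSF1, had 160.4, 160.8 and 161 FPKM in control libraries 1 to 3 and 88.9, 91.5 and 93.4 in shSETD2 libraries 1 to 3. It was 1.76-fold lower, at a log2 fold change of -0.81 ± 0.03 (SE; adjusted p = 1.14e-06, limma) as deposited and -0.48 after median ratio scaling. Its close relative HNRNPA2B1 changed less, from 79.97 ± 0.547 to 70.8 ± 0.686 FPKM (SD, n = 3), and was lower as deposited and higher after median ratio scaling. The ratio of HNRNPA1 to HNRNPA2B1 within a library was 2.02, 2.01 and 2.01 in the control libraries and 1.26, 1.28 and 1.33 in the shSETD2 libraries. HNRNPA1 starts 59 bases from CBX5, the gene of the heterochromatin protein HP1 alpha (chr12:54673918-54673976), and these bases, marked as above, hold CCAAT and GGGCGG.
HNRNPA1 and CBX5: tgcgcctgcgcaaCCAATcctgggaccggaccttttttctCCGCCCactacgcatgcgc
CBX5 went from 37.3 ± 0.812 to 23.8 ± 0.87 FPKM (SD, n = 3) and was also called lower, with a log2 fold change of -0.63 (adjusted p = 1.6e-05, limma).

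HNRNPA1L2 is a retrocopy of HNRNPA1 on chromosome 13, and the values of the pair may share reads. It had 13.1, 11.7 and 10.5 FPKM in the control libraries and 4.60, 5.04 and 4.66 in the shSETD2 libraries. This was the deepest fall among the hnRNP genes, 2.47-fold, with a log2 fold change of -1.14 ± 0.08 (SE; adjusted p = 2.43e-05, limma). Its coding sequence of 960 bases and that of the closest HNRNPA1 transcript differ at 15 positions and are 98.4% identical, with a longest identical run of 174 bases. The window of 60 coding bases shown, positions 589 to 648, was picked for having the most differences among windows that no intron interrupts. Even there, few bases can tell the genes apart. Capitals mark the 3 positions that differ (GRCh37, plus strand, chr12:54676362-54676421 and chr13:53217216-53217275).
HNRNPA1: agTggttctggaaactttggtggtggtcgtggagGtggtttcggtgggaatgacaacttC
HNRNPA1L2: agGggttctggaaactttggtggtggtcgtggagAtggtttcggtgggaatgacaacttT
The sum of both genes was 173, 173 and 172 FPKM in the control libraries and 93.5, 96.5 and 98.1 in the shSETD2 libraries, so the fall of the sum does not rest on how reads were divided between them, while the value of HNRNPA1L2 alone is uncertain.

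HNRNPF, which binds runs of G (chr10:43881065-43904614, minus strand), rose. It had 55.3, 55.6 and 53.4 FPKM in the control libraries and 91.8, 89.8 and 92.97 in the shSETD2 libraries. The log2 fold change was 0.73 ± 0.03 (SE; adjusted p = 2.72e-06, limma) as deposited and 1.06 after median ratio scaling, and it was above 0 in all alternatives run. The related G-run binder HNRNPH1 fell, from 31.99 ± 1.27 to 19.3 ± 1.89 FPKM (SD, n = 3), and HNRNPH3 from 40.0 ± 0.783 to 22.8 ± 1.58. The FPKM of HNRNPF was thus 1.70, 1.69 and 1.75 times that of HNRNPH1 in the control libraries and 4.56, 4.36 and 5.44 times in the shSETD2 libraries, a ratio chosen after the values had been seen. HNRNPH2, the X-linked copy of HNRNPH1, was not called, at 40.8 ± 1.35 and 38.2 ± 1.57 FPKM, and a readthrough gene on the same strand, RPL36A-HNRNPH2, varied between 3.24 and 13.8 FPKM over the libraries without separating the groups.

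HNRNPU, a scaffold protein of nuclear chromatin that binds RNA and DNA, had 35.98, 33.2 and 34.7 FPKM in the control libraries and 20.6, 18.4 and 16.9 in the shSETD2 libraries. It was 1.86-fold lower, with a log2 fold change of -0.87 ± 0.08 (SE; adjusted p = 6.18e-05, limma). HNRNPA0, HNRNPD and HNRNPDL, which bind AU-rich elements, had log2 fold changes of -0.86, -0.81 and -0.81, and HNRNPUL1 and HNRNPA3 had -0.60 and -0.58, all lower in both scalings. HNRNPR, HNRNPC, which binds runs of U in nascent RNA, HNRNPUL2 and HNRNPAB were lower as deposited, with log2 fold changes between -0.50 and -0.40, and were not called after median ratio scaling. HNRNPC had 36.7, 36.7 and 43.9 FPKM in shSETD2 libraries 1 to 3, with library 3 closest to the controls at 55.1 ± 1.35. HNRNPK, HNRNPM, HNRNPLL and HNRNPH2 were not called as deposited and were higher after median ratio scaling, and HNRNPK lay close to the threshold, at a log2 fold change of -0.09 with an adjusted p of 0.0512 in limma. HNRNPUL1 overlaps TGFB1 on the opposite strand, which was between 9.21 and 9.53 FPKM in the control libraries and between 36.7 and 41.4 in the shSETD2 libraries, opposite to the fall of HNRNPUL1.

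The 3 PTBP genes, which encode polypyrimidine tract binding proteins, went 3 different ways. PTBP1, the widely expressed form that represses neuronal exons, had 44.9, 45.3 and 44.7 FPKM in the control libraries and 41.1, 33.1 and 47.9 in the shSETD2 libraries. The shSETD2 libraries lay on both sides of the controls, and the log2 fold change of -0.16 ± 0.12 (SE; adjusted p = 0.288, limma) was not called and turned to 0.17 after median ratio scaling. Without shSETD2 library 3 it was -0.28 (adjusted p = 0.0402, limma). PTBP2, the form found in neurons, whose transcript PTBP1 can steer into decay, had 4.76, 4.87 and 4.96 FPKM in the control libraries and 2.54, 1.57 and 2.23 in the shSETD2 libraries. PTBP2 was 2.30-fold lower, with a log2 fold change of -0.93 ± 0.12 (SE; adjusted p = 0.000419, limma) and of -0.67 after median ratio scaling. PTBP3, the form known from blood cells, had 11.9, 12.7 and 13.3 FPKM in the control libraries and 20.4, 23.3 and 15.9 in the shSETD2 libraries. PTBP3 was higher in every shSETD2 library, at a log2 fold change of 0.60 ± 0.13 (SE; adjusted p = 0.00542, limma), and its spread over the shSETD2 libraries was the widest of the splicing factor genes, at an SD of 0.26 on the log2(FPKM + 1) scale. PTBP1 and PTBP3 varied in opposite order over the shSETD2 libraries, with library 2 lowest for PTBP1 and highest for PTBP3.

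Among the genes for SF3A, SF3B and U2AF, which recognize the branch point and the end of the intron, subunits of the same complex changed by different amounts. Of 11 genes tested 6 were lower, 2 were higher and 3 were not called as deposited. The shares over all genes tested were 51.8% lower and 26.8% higher, and 39.1% and 37.1% after median ratio scaling. After median ratio scaling 3 were lower and 6 higher, with SF3B2, SF3B5, SF3A1 and SF3A3 turned from below 0 to above 0, and after quantile normalization SF3B3 and U2AF2 turned from above 0 to below 0. The median log2 fold change was -0.14 as deposited and 0.19 after median ratio scaling.

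SF3B6, the small subunit that lies against SF3B1 and contacts the branch point adenosine, had the deepest fall of the splicing factor genes tested on the log2(FPKM + 1) scale (chr2:24290454-24299313, minus strand). On the FPKM scale the differences of MBNL3 and of the untested CELF5 and CELF6 were larger in fold, at low levels given below. SF3B6 had 98.8, 100.1 and 103 FPKM in control libraries 1 to 3 and 25.4, 30.9 and 28.8 in shSETD2 libraries 1 to 3. SF3B6 was 3.54-fold lower, at a log2 fold change of -1.79 ± 0.07 (SE; adjusted p = 1.48e-06, limma), and the log2 fold change was between -1.99 and -1.47 in all alternatives run. It starts 82 bases from FAM228B on the opposite strand (chr2:24299314-24299395), and these bases, marked as above, hold CGGAAG on both strands and GGGCGG.
SF3B6 and FAM228B: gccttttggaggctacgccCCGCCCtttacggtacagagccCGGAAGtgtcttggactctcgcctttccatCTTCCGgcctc
FAM228B was also lower, from 1.48 ± 0.483 to 0.266 ± 0.202 FPKM (SD, n = 3).

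SF3B1, the subunit that is recurrently mutated in myelodysplasia, had 49.4, 48.6 and 47.2 FPKM in the control libraries and 35.6, 37.8 and 36.1 in the shSETD2 libraries. It was lower as deposited, at a log2 fold change of -0.40 ± 0.04 (SE; adjusted p = 0.000108, limma), and was not called after median ratio scaling, at -0.07. SF3A2 had 33.9, 35.4 and 34.6 FPKM in the control libraries and 20.4, 18.7 and 20.5 in the shSETD2 libraries. The log2 fold change of SF3A2 was -0.77 ± 0.05 (SE; adjusted p = 1.17e-05, limma), while SF3A1 and SF3A3, the other members of the trimer, were not called, at log2 fold changes of -0.05 and -0.01. SF3B4, mutated in Nager syndrome, had 33.3, 30.9 and 30.6 FPKM in the control libraries and 43.6, 40.9 and 45.3 in the shSETD2 libraries. SF3B4 rose, by a log2 fold change of 0.44 ± 0.05 (SE; adjusted p = 0.000331, limma), and was higher in each alternative run. SF3B3, the large scaffold subunit, had 32.6, 33.5 and 34.03 FPKM in the control libraries and 37.9, 37.1 and 38.4 in the shSETD2 libraries. SF3B3 was higher by a log2 fold change of 0.18 ± 0.04 (SE; adjusted p = 0.00374, limma) as deposited, 0.50 after median ratio scaling and -0.08 after quantile normalization, where it was not called.

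Ratios within a library show the unequal change of the subunits without regard to scaling. The FPKM of SF3B6 was 2.00, 2.06 and 2.17 times that of SF3B1 in the control libraries and 0.714, 0.817 and 0.796 times in the shSETD2 libraries, so the order of the pair was reversed. The ratio of SF3B4 to SF3B1 went the other way, from 0.675, 0.636 and 0.649 to 1.22, 1.08 and 1.25. For SF3A2 the ratio to SF3B1 went from between 0.687 and 0.732 to between 0.494 and 0.572. These ratios were chosen after the values had been seen and are given without a test. SF3B5 was lower as deposited at a log2 fold change of -0.14 (adjusted p = 0.0314, limma), but it was not called when control library 1 (-0.11, adjusted p = 0.0957, limma), control library 2 (-0.14, adjusted p = 0.0713, limma), shSETD2 library 2 (-0.12, adjusted p = 0.0761, limma) or shSETD2 library 3 (-0.12, adjusted p = 0.0914, limma) was left out.

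U2AF2, which binds the polypyrimidine tract, and U2AF1, its partner that reads the AG at the end of the intron, differed as well. U2AF1 had 8.02, 8.66 and 8.22 FPKM in the control libraries and 5.28, 4.52 and 5.89 in the shSETD2 libraries, and was lower in both scalings, with a log2 fold change of -0.58 as deposited. U2AF2 was not called as deposited, at 37.4 ± 0.664 and 38.5 ± 0.814 FPKM (SD, n = 3). The value of U2AF1 is uncertain, because a near-identical gene, U2AF1L5, is annotated at the same place and strand and had between 0.697 and 1.26 FPKM in the control libraries and between 1.09 and 3.48 in the shSETD2 libraries. The sum of U2AF1 and U2AF1L5 as deposited was 9.17, 9.36 and 9.48 FPKM in the control libraries and 7.34, 7.999 and 6.98 in the shSETD2 libraries, still without overlap but with a smaller difference. Whether the sum would also be lower after median ratio scaling was not tested. The call of U2AF1 after that scaling may therefore depend on how reads were divided between the genes.

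**Figure D3:**
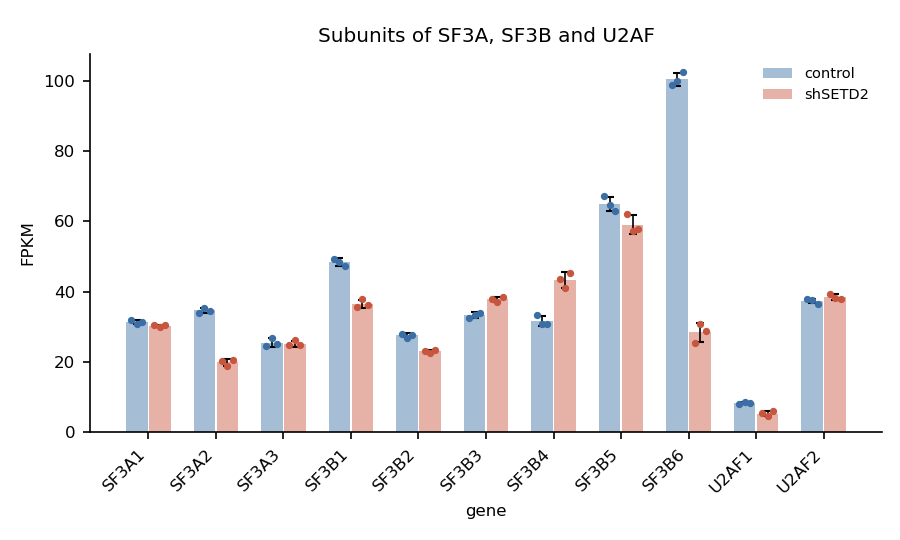
FPKM of the 11 genes for SF3A, SF3B and U2AF in control (blue) and shSETD2 (red) libraries. Bars give the mean, error bars the SD over 3 libraries and points each library; SF3B6 falls from a mean of 100.5, the highest control level shown, to 28.4, while SF3B3 and SF3B4 are above their controls.

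The tissue-biased regulators of the MBNL, CELF and RBFOX families included the largest rise of all splicing factor genes. Of 6 genes tested 3 were higher, CELF2, MBNL2 and MBNL1, and 2 were lower, MBNL3 and RBFOX2. Over all genes tested 26.8% were higher and 51.8% lower. After median ratio scaling 4 were higher and 1 lower, and CELF1, at 0.01 as deposited, turned below 0 after quantile normalization and was higher after median ratio scaling. CELF5 and CELF6 were below the filter on low values, and RBFOX1, RBFOX3, CELF3 and CELF4 were not analysed here.

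CELF2, which counters MBNL proteins on many exons (chr10:10840360-11378674, plus strand), had 1.23, 0.873 and 1.23 FPKM in the control libraries and 3.66, 4.53 and 4.04 in the shSETD2 libraries. It was 3.67-fold higher on the FPKM scale, with a log2 fold change of 1.27 ± 0.10 on the log2(FPKM + 1) scale (SE; adjusted p = 3.7e-05, limma). Its relative CELF1, which had the highest mean FPKM of these families, stood at 19.5, 19.4 and 19.6 FPKM in the control libraries and 20.3, 19.6 and 19.0 in the shSETD2 libraries. CELF1 overlapped between the groups and had a log2 fold change of 0.01 ± 0.04 (SE; adjusted p = 0.852, limma). MBNL2 had 6.28, 6.29 and 5.48 FPKM in the control libraries and 9.72, 10.05 and 9.41 in the shSETD2 libraries. It was higher by a log2 fold change of 0.61 ± 0.06 (SE; adjusted p = 0.000139, limma), and MBNL1, the family member sequestered by expanded repeats in myotonic dystrophy, by 0.30 (adjusted p = 0.00347, limma).

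MBNL3, the family member linked to the placenta and to undifferentiated muscle, had 2.49, 2.04 and 0.386 FPKM in the control libraries and 0.0107, 0.0332 and 0.0311 in the shSETD2 libraries. The shSETD2 libraries were all near 0, and control library 3 stood well below the other controls. The mean was 65.5-fold lower on the FPKM scale. The log2 fold change was -1.26 ± 0.34 on the log2(FPKM + 1) scale (SE; adjusted p = 0.0127, limma), and this size is set by the pseudocount, since it was -5.25 with a pseudocount of 0.01. MBNL3 was not called with quantile normalization (adjusted p = 0.0508, limma) or in an ordinary linear model per gene (adjusted p = 0.0523 over all genes). RBFOX2, a regulator of epithelial and mesenchymal exons, had 22.5, 22.8 and 21.6 FPKM in the control libraries and 16.8, 17.01 and 16.4 in the shSETD2 libraries. It was lower by a log2 fold change of -0.39 ± 0.04 (SE; adjusted p = 0.000131, limma) as deposited and was not called after median ratio scaling, at -0.07. CELF5 had 0.659, 0.961 and 1.12 FPKM in the control libraries and 0.0212, 0 and 0.0412 in the shSETD2 libraries. CELF6 had at most 0.0479 FPKM in a control library and was listed at 0 in all shSETD2 libraries. Neither was tested, and both are genes known mainly from the nervous system.

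Ratios of related genes were compared in 12 pairs, since a ratio within a library is free of its scaling. The groups did not overlap in 11 pairs, 7 with the shSETD2 libraries above and 4 with the control libraries above, and each of these had an exact two-sided permutation p of 0.1, the smallest possible, or 0.109 after adjustment over the 12 pairs. The groups also did not overlap for 80.9% of all single genes tested. No count was made over gene pairs in general, so separation is not shown to be particular to these pairs. The largest differences were those of MBNL3 to MBNL1, CELF2 to CELF1 and PTBP2 to PTBP1. The CELF2 to CELF1 ratio was 0.0631, 0.0451 and 0.0627 in the control libraries and 0.181, 0.232 and 0.212 in the shSETD2 libraries. The PTBP2 to PTBP1 ratio was 0.106, 0.108 and 0.111 in the control libraries and 0.0618, 0.0474 and 0.0466 in the shSETD2 libraries, and the PTBP3 to PTBP1 ratio was 0.265, 0.281 and 0.298 against 0.497, 0.704 and 0.333. Thus PTBP2 was lower and PTBP3 higher relative to PTBP1 in each shSETD2 library. TRA2A and TRA2B, which bind the same enhancers, were at a ratio of 0.989, 1.22 and 0.956 in the control libraries and 1.43, 1.49 and 1.53 in the shSETD2 libraries. The ratio of HNRNPDL to HNRNPD overlapped between the groups, at 1.56, 2.00 and 1.95 against 1.85, 1.69 and 2.01, and the difference of its log2 mean was 0.01 (exact permutation p = 0.8).

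**Figure D4:**
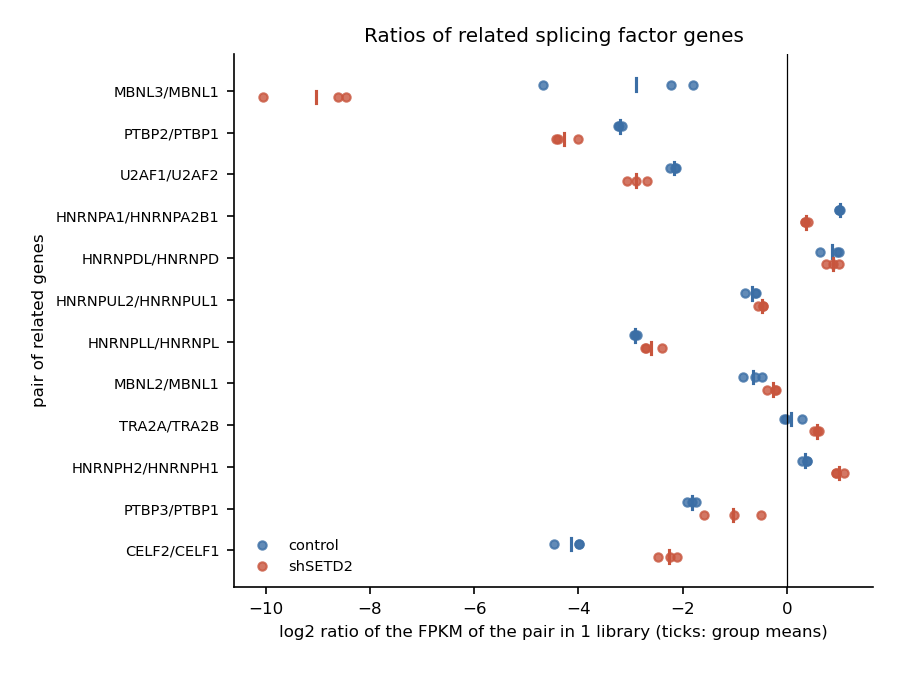
Log2 ratio of the FPKM of 2 related genes in each library, for 12 pairs ordered by the difference between the groups. Points are libraries (blue control, red shSETD2) and ticks group means; 11 pairs separate without overlap, with MBNL3/MBNL1 farthest to the left and CELF2/CELF1 shifted to the right by 1.88, while HNRNPDL/HNRNPD overlaps.

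Genes with a head-to-head neighbour were counted in all, since the pairs printed above were chosen with their values known. Of these, HNRNPA1 was named for its mean FPKM rather than its change. A start on the opposite strand within 1000 bases was found for 13 of the 57 splicing factor genes, 22.8%, and for 15.5% of the 13617 listed protein-coding genes. In 6 of the 14 pairs with a splicing factor gene, 42.9%, both genes were called in the same direction, against 41.6% of all 1000 such pairs. Both were called in opposite directions in 0 of the 14 and in 164 of the 1000, and at least 1 gene was not called in 8 and in 420. The share that moved in the same direction was thus close to that of head-to-head pairs in general. Beside the 4 such pairs described above, HNRNPDL and ENOPH1, and HNRNPUL2 and TTC9C, were all called lower. The 8 pairs with a gene not called were CELF1 with NDUFS3 and with PTPMT1, HNRNPA2B1 with CBX3, HNRNPH2 with GLA, HNRNPK with RMI1, SF3A1 with CCDC157, SF3B3 with COG4, and SRSF9 with DYNLL1. In the promoters of RefSeq (GRCh38.p14, 250 bases before to 50 after a start), 52 of the 57 genes had 88 promoters. CCAAT on either strand was in 37.5% of these and in 34.7% of all 22199 promoters, GGGCGG in 60.2% and 56.3%, and CGGAAG, a core of ETS factor sites, in 38.6% and 23.7%. The windows printed above are shorter than these promoters, so the shares cannot be read across.

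Many SR and hnRNP genes control their own level through exons that lead the transcript to nonsense-mediated decay, often called poison exons. The annotation of GRCh37 holds at least 1 transcript of this kind for all 14 SR and TRA2 genes, for 14 of 21 hnRNP genes, for 5 of 11 SF3A, SF3B and U2AF genes, and for 40 of all 57, 70.2%, against 45.8% of 13538 listed protein-coding genes. HNRNPA2B1 has 35 such transcripts among 49 annotated, and HNRNPA1 has 18 among 84. The shares were not matched for the number of transcripts annotated per gene, so the difference may reflect that number. The deposited FPKM is given per gene, so productive and decaying transcripts were not told apart here, and a level above is the sum of both.

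Other genes of the splicing machinery were counted to set the splicing factor genes beside them. Of 30 proteins of the U1, U2, U4, U5 and U6 snRNPs 6 were higher and 17 lower, of 10 branch site partners 1 and 8, of 8 SR protein kinases 0 and 5, of 10 hnRNP proteins with other names 3 and 7, and of 29 other splicing regulators tested 1 and 20. After median ratio scaling the counts were 10 and 11, 2 and 3, 2 and 4, 4 and 4, and 5 and 11. Of all genes tested 26.8% were higher and 51.8% lower as deposited, and 37.1% and 39.1% after median ratio scaling. The medians of the log2 fold change were between -0.42 and -0.26 as deposited, beside -0.29 for all genes. The count of kinases that were higher was 0 as deposited in limma, also at an unadjusted p under 0.05, and SRPK1 and CLK1 were higher after median ratio scaling.

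The kinases that phosphorylate SR proteins did not move as one. SRPK1, which acts on SR proteins in the cytoplasm, was not called, at 29.2 ± 0.264 and 28.3 ± 0.458 FPKM (SD, n = 3), and its log2 fold change of -0.04 turned to 0.28 after median ratio scaling. CLK1 was not called either, at 7.14 ± 0.253 and 7.25 ± 0.4 FPKM. CLK2, named after its values had been seen, had 22.5, 22.4 and 23.5 FPKM in the control libraries and 7.50, 6.02 and 6.38 in the shSETD2 libraries, and was lower by a log2 fold change of -1.64 (adjusted p = 3.21e-06, limma). Of the snRNP proteins, also named after the values had been seen, SNRPE of the Sm ring had 71.5, 72.7 and 75.5 FPKM in the control libraries and 25.0, 27.8 and 27.0 in the shSETD2 libraries. PRPF6, which bridges the U4/U6 and U5 snRNPs, had 29.3, 30.6 and 28.8 FPKM in the control libraries and 62.6, 58.3 and 59.8 in the shSETD2 libraries, a log2 fold change of 1.00 (adjusted p = 2.15e-06, limma). SNRPN, an imprinted gene for a Sm protein used in brain, stood at 0 in every control library and at 12.3, 13.4 and 12.9 FPKM in the shSETD2 libraries.

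Among the other regulators, those of epithelial and neuronal exons differed in the same libraries in which the lineage markers differed. ESRP2, an epithelial regulator, had 1.48, 2.28 and 2.04 FPKM in the control libraries and no more than 0.0295 in the shSETD2 libraries, and was called lower (adjusted p = 2.32e-05, limma). ESRP1, its partner, was below the filter, at no more than 0.0439 FPKM in the control libraries and 0.639, 0.962 and 0.808 in the shSETD2 libraries. NOVA1, a neuronal regulator, had 2.16, 1.72 and 1.80 FPKM in the control libraries and was listed at 0 in all shSETD2 libraries. QKI, which shapes exons in glia and mesenchymal cells, overlapped between the groups at 3.26 ± 0.313 and 3.18 ± 0.138 FPKM (SD, n = 3). The part of the lineage markers in these values was not tested.

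The reader proteins that link trimethylated lysine 36 to splicing differed in direction. MORF4L1 had 37.7, 36.6 and 33.5 FPKM in the control libraries and 18.4, 19.5 and 20.0 in the shSETD2 libraries, and was lower by a log2 fold change of -0.86 (adjusted p = 1.7e-05, limma). PSIP1 had 24.0, 25.7 and 24.8 FPKM in the control libraries and 14.8, 17.3 and 14.6 in the shSETD2 libraries, and was lower by -0.64 (adjusted p = 0.000217, limma). ZMYND11, a reader of this mark on the variant histone H3.3 that restrains elongation, had 4.56, 4.40 and 4.32 FPKM in the control libraries and 8.59, 10.6 and 9.42 in the shSETD2 libraries. ZMYND11 was higher by 0.95 (adjusted p = 4.01e-05, limma), and the direction of all 3 readers held after median ratio scaling. The splicing partners named with them, PTBP1 for MORF4L1 and SRSF1 for PSIP1, were not called and called lower, respectively.

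**Figure D5:**
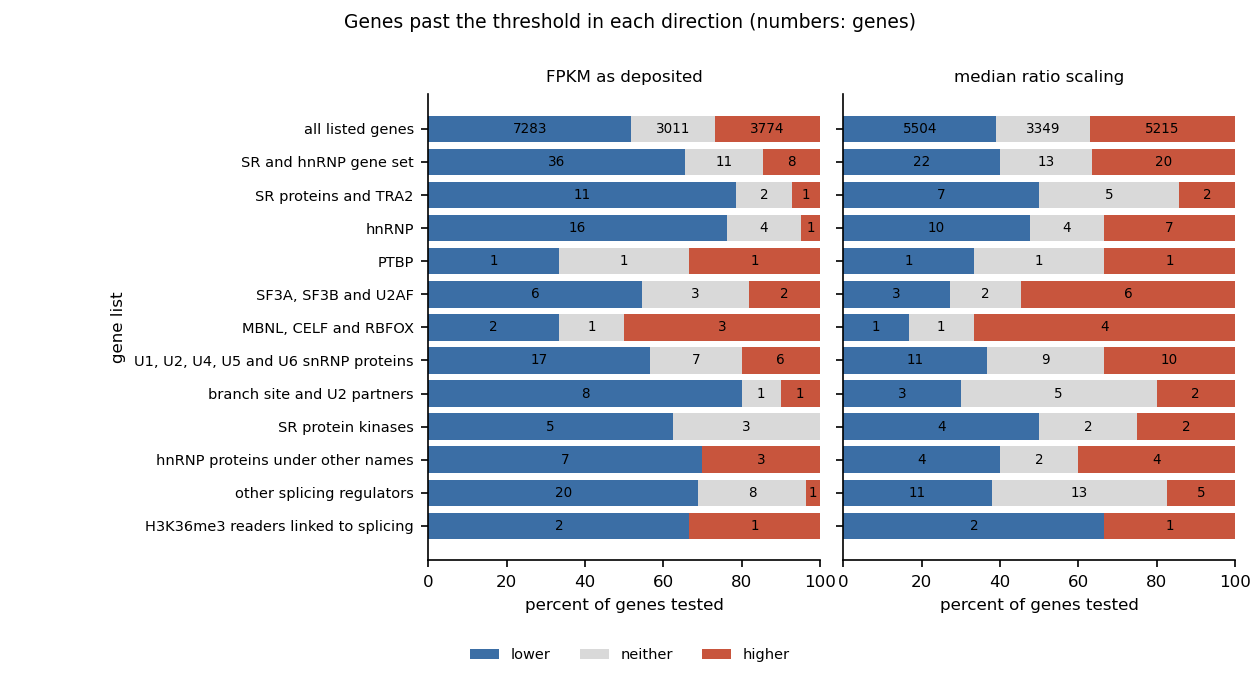
Share of genes tested that were lower (blue), not called (grey) or higher (red) in the shSETD2 libraries, for all listed genes, the SR and hnRNP gene set, its 5 role groups and 6 other lists, as deposited (left) and after median ratio scaling (right). Numbers in the bars are genes; the blue part is larger than the red in the gene set on the left, with 36 and 8 genes, and nearly equal to it on the right, with 22 and 20.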

How the data were processed

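RNA-seq covered 3 control and 3 shSETD2 libraries of cells labelled H1650. The authors mapped reads to hg19 with HISAT2 and quantified genes with Ballgown, whose versions are not given in the sources used here, and deposited FPKM per gene and library. A second deposited table holds the authors' own fold changes and p-values and was not used. The 14068 genes whose FPKM averaged 0.5 or more were fitted on log2(FPKM + 1) in R 4.3.3 with limma 3.58.1 (lmFit, eBayes with an intensity trend), with Benjamini-Hochberg adjustment over all genes tested and a threshold of 0.05. This scale shrinks fold changes of genes with low FPKM. Ratios and shares were compared with exact permutation tests over libraries. Library depth cannot be read from FPKM, so precision comes from the spread over 3 libraries. The libraries of 1 number did not deviate together in the 2 groups, so numbers were not used as pairs.

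The genes described, the other gene lists and the pairs were chosen with earlier results of these data known. Genes were named by rule: per role group the 2 largest called rises and falls, the highest mean FPKM, every called log2 fold change of at least 1 in size, and the untested genes above 0, with SETD2, 3 reader genes and 6 other regulators in any case. For 1 listed gene with several rows, the row with the higher mean was used. Whether the quantification used strand is not given in the sources used here. The alternatives were pseudocounts of 0.1 and 0.01, no filter or a mean of 5 FPKM, median ratio, quantile or upper quartile scaling, an ordinary linear model or no intensity trend, the replicate number as a block, and each library left out in turn. On simulated data (14068 genes, 200 of them changed), the fit called 88 of 97 changed genes with an FPKM over 5. It also called 6 of 13868 unchanged genes. In the deposited data 78.6% of the genes tested were called, and the performance of the fit at such a share was not tested. Positions and printed sequences are from the GRCh37 genome and its annotation, the build of the files. Python 3.11.15 with pandas 2.3.3, numpy 2.4.6 and matplotlib 3.10.9 was used for tables and plots. The values of 1 marker gene are not reported here.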

Additional observations from a re-analysis of the deposited data

How the results depend on the processing

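Scaling mattered most. Median ratio scaling gave 20 splicing factor genes higher and 22 lower, against 8 and 36 as deposited, and the cause was not tested. A mean FPKM of at least 5 left 2401 genes higher and 3246 lower of all genes, against 3774 and 7283, because fewer genes were tested. The summed share differed by -0.329 percentage points without the 10 highest genes, against -0.223. With 1 library left out, between 8 and 9 splicing factor genes were higher and between 35 and 37 lower, between 3587 and 3704 of all genes were higher and between 6925 and 7097 lower, and the share differed by between -0.229 and -0.216. These named genes changed direction: CELF1 under quantile normalization (-0.12) and without shSETD2 library 1 (-0.014; -0.014 to 0.029 with 1 library left out), PTBP1 under median ratio scaling (0.17), SF3B3 under quantile normalization (-0.077), QKI under upper quartile (0.044), quantile (0.26) and median ratio scaling (0.23) and without control library 3 (0.036; -0.066 to 0.036 with 1 left out), SRPK1 under upper quartile (0.044) and median ratio scaling (0.28), and CLK1 without shSETD2 library 2 (-0.021; -0.021 to 0.044 with 1 left out). With the replicate number as a block, 8 splicing factor genes were higher and 36 lower, beside 3733 and 7243 of all genes. SETD2 passed the threshold with this block (-0.58, adjusted p = 0.0156, limma). The deviations of libraries with the same number correlated at -0.0237, 0.0177 and -0.00766, so the numbers do not pair the libraries. Over all results and alternatives, 906 values kept their direction and side of the threshold or stayed within the spread or within 1.5 times the count, 3 lost the threshold, 8 passed it, 37 moved further and 11 reversed.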
